A study of Mus musculus with 6 samples.

Results

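Genes that mark astrocytes and radial glia were followed in mouse glial cells with and without the H3.3K27M histone: *Gfap*, *Vim*, *Nes*, *Slc1a2*, *Slc1a3*, *Glul*, *Aqp4*, *Aldh1l1*, *S100b* and *Fabp7*. They were chosen by name, and their probes were found through the RefSeq accession that the scanner output gives for each probe. They are 10 of the 22911 genes that could be named on the array and 10 of the 14898 that were tested, and 14 probes read them.

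RNA from OS3 cells, a male mouse line of immortalized brain glia from the C3H strain with properties of bipotential glial progenitors, was measured on single-color Agilent mouse arrays, with 3 arrays per group. WT cells were OS3 cells with the empty vector, and IG27 cells were OS3 cells transfected with the pcDNA3.1 plasmid that carries the lysine-to-methionine form of histone H3.3 (OS3-H3F3A_K27M in the labels). Both groups carried the immortalization with SV40, grew for 2 days in MEM-α with serum, insulin and glucose, and came from dishes, so that a p-value here measures the spread between samples of 1 line. After transfection, clones were set up by selection with a drug. The sources used here do not say whether the WT cells were also cloned, or whether 1 clone or several gave the IG27 RNA. H3.3K27M and the choice of clone cannot be told apart.

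Radial glia are the neural stem cells of the developing brain, and astrocytes arise from them. *Vim*, *Nes* and *Fabp7* are typical of radial glia, *Gfap* and *Slc1a3* are found in both cell types, and *Aldh1l1*, *S100b*, *Aqp4*, *Slc1a2* and *Glul* mark more mature astrocytes. In the brain, astrocytes take up glutamate from the synapse through the transporters of *Slc1a2* and *Slc1a3*, turn it into glutamine with the enzyme of *Glul*, and move water through *Aqp4*.

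Values are normalized log2 intensities, that is, log2 of the processed signal minus the 75th percentile of the array, so that 0 is the 75th percentile and 1 unit is a doubling. The scanner output of IG27 replicate 2 was complete for 285 of 62976 spots, and its values came from the deposited value table. Between 58.8% and 61.2% of probes were well above background on the 5 complete arrays, and no spot was saturated. Arrays correlated at 0.9943 to 0.9971 within a group and at 0.9016 to 0.9052 between groups (Pearson, across genes). The brightest probe of *H3f3a*, the gene of the expressed histone, had values from 6.70 to 6.96 in WT and from 6.52 to 6.61 in IG27 cells, and the next brightest had values from 5.12 to 5.35 and from 5.35 to 5.45. The files do not say whether they read the plasmid, so that they check no label.

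Of the 10 markers, 3 were higher in IG27 cells (*Fabp7*, *S100b* and *Slc1a3*), 4 were lower (*Gfap*, *Slc1a2*, *Aldh1l1* and *Nes*) and 3 did not pass the test (*Vim*, *Glul* and *Aqp4*), at an adjusted p under 0.05 (limma, Benjamini-Hochberg over all genes tested). Among all genes tested 70.5% passed, 30.5% higher and 40% lower, so that 7 of 10 markers is a share near the background. The median log2 fold change was -0.07 for the markers and -0.07 for all genes. The markers' sizes were unequal, from at least 110.4-fold for *Fabp7* to 1.41-fold for *Nes* among those that passed. Each array read RNA from many cultured cells together, so that fewer cells with a marker and less of its RNA per cell cannot be told apart.

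**Figure D1:**
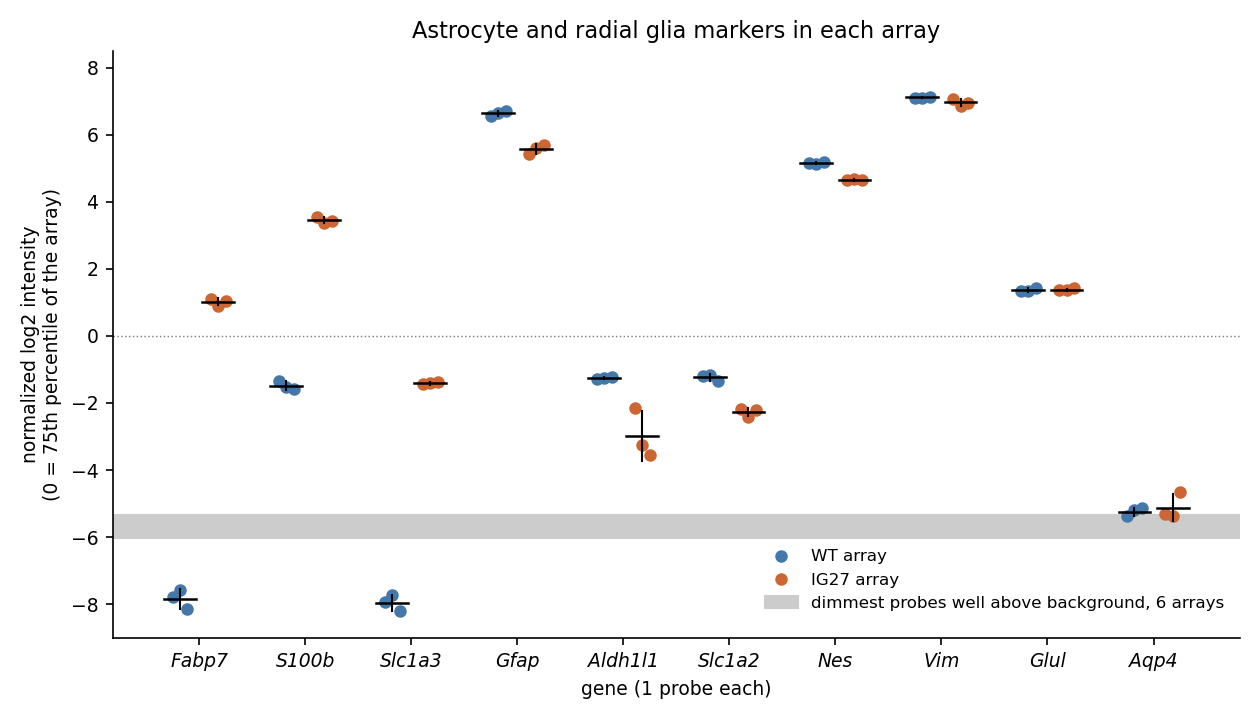
Normalized log2 intensity (y axis, 0 = 75th percentile of the array) of the brightest probe of each of the 10 markers (x axis) in the 3 WT and 3 IG27 arrays; points are arrays, horizontal bars are means, vertical bars are SDs, and the gray band spans the dimmest probes well above background. *Fabp7* and *Slc1a3* lie below the band in WT cells and above it in IG27 cells, and the groups overlap for *Glul* and *Aqp4*.

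*Fabp7* encodes the brain fatty acid-binding protein, a marker of radial glia. Its processed signal was 4.84, 5.46 and 3.48 in WT replicates 1 to 3 and 2341, 2124 and 2068 in IG27 replicates 1 to 3. On the log2 scale these were -7.79, -7.57 and -8.15 in WT and 1.10, 0.90 and 1.05 in IG27 cells. All 3 IG27 arrays were bright and no WT array was well above background.
Because the WT level is only a bound, the difference is given as at least 110.4-fold, set against the higher of the probe's own signal and the dimmest probe well above background on each WT array. The fitted log2 fold change was 8.85, with a standard error of 0.15 and an adjusted p of 1.41e-07 (limma, Benjamini-Hochberg). Bounds of other genes were set in the same way on means of log2 values, and where IG27 was the dim group, replicate 2, which lacks the flag, took the higher limit of the other IG27 arrays. *Fabp7* and *Slc1a3* passed the filter on dim probes through the IG27 arrays alone, and *Aqp4* through the WT arrays alone. Entry through 1 group favors genes that differ, so that the calls of *Fabp7* and *Slc1a3* were favored in advance. The same holds for genes of the further lists that entered through 1 group alone, and for the counts and medians that include them.

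*S100b* encodes a calcium-binding protein of astrocytes that oligodendrocyte precursors also make. It was well above background in both groups. Its log2 intensity was -1.33, -1.53 and -1.58 in WT and 3.55, 3.37 and 3.43 in IG27 cells, and the groups were far apart. The change was 30.5-fold, with a log2 fold change of 4.93, a standard error of 0.09 and an adjusted p of 1.48e-07 (limma, Benjamini-Hochberg). Among tested genes, 2.02% had a larger fitted change.

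*Slc1a3* encodes GLAST, the glutamate transporter of radial glia and astrocytes. It had log2 intensities of -7.93, -7.74 and -8.21 in WT cells, none of them well above background, and of -1.45, -1.41 and -1.36 in IG27 cells. The IG27 level was at least 20.6-fold higher, with an adjusted p of 1.79e-07 for the fitted log2 fold change of 6.55 (limma, Benjamini-Hochberg). With normexp background correction, which adds an offset of 50 to every signal, the fitted values of *Slc1a3* and *Fabp7* shrank to 2.91 and 4.93. Both still passed, a result that their entry through the IG27 arrays alone favored.

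The 250 bases before the transcription start of the 3 genes that were higher, and of *Aldh1l1*, which was lower, are shown to let their promoters be compared (RefSeq, GRCm38.p6, 5′ to 3′ on the strand of the gene). Capitals mark the motifs named in the next paragraph.
*Fabp7*, chr10:57784673-57784922 (plus strand): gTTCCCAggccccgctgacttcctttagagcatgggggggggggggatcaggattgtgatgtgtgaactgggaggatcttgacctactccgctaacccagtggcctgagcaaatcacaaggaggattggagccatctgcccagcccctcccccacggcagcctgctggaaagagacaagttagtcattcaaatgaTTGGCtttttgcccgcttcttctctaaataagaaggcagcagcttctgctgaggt
*S100b*, chr10:76253586-76253835 (plus strand): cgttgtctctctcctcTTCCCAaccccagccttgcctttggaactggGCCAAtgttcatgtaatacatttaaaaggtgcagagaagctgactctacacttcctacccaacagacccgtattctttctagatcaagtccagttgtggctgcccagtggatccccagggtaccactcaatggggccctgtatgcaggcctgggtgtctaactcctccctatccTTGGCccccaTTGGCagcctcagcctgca
*Slc1a3*, chr15:8710808-8711057 (minus strand): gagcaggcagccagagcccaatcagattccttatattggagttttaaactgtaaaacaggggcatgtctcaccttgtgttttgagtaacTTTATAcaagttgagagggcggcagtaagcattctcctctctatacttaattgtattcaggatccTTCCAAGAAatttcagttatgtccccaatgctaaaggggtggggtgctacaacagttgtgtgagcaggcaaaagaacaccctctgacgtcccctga
*Aldh1l1*, chr6:90550543-90550792 (plus strand): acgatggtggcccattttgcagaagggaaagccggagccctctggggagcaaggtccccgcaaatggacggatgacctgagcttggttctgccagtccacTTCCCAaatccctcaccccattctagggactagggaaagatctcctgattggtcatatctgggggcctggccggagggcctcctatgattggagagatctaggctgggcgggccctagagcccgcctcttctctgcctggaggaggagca

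Promoters from the RefSeq table were read for 9 of the 10 markers, and that of *Aqp4* is not reported here. Motifs were searched on both strands of the 250 bases, and no matches overlapped in the markers. The core of the Notch effector RBPJ (TGGGAA) was in 4 of the 9 promoters and in 21.6% of all 32851 promoters. Its carriers did not share a direction: *Fabp7* and *S100b* were higher, and *Gfap* and *Aldh1l1* were lower. The first bases of the nuclear factor I site (TTGGC) were in 5 of 9 promoters (*Fabp7*, *S100b*, *Slc1a2*, *Glul* and *Vim*) and in 41.5% of all. The STAT motif (TTCNNNGAA) was found in *Slc1a3* alone, 96 bases before its start, and in 7.02% of all promoters. The letters of the TATA box (TATAAA) were in 2 promoters and in 12.4% of all, 32 bases before the start of *Vim* and, on the opposite strand, 161 bases before that of *Slc1a3*. The SOX motif (ACAAAG) was in 0 of 9 and in 16.5% of all. The promoters of *Fabp7*, *S100b* and *Slc1a3* held 4, 2 and 2 CpG dinucleotides, those of *Gfap*, *Slc1a2* and *Aldh1l1* held 2, 1 and 7, and those of *Nes*, *Glul* and *Vim* held 15, 15 and 8, against a median of 6 in all promoters.

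Gfap, the intermediate filament protein that defines astrocytes in histology, was read by 2 probes that moved in opposite directions. The probe designed on NM_010277 had values of 6.56, 6.66 and 6.71 in WT and of 5.41, 5.60 and 5.70 in IG27 cells. This is a log2 fold change of -1.07 (SE 0.09, adjusted p = 6.93e-05, limma with Benjamini-Hochberg adjustment), lower in all 3 IG27 arrays. The probe designed on NM_001131020, another transcript of *Gfap*, had values of 4.60, 4.67 and 4.56 in WT and of 4.77, 4.76 and 4.86 in IG27 cells.
For this probe the IG27 arrays were all higher, by 0.19 (SE 0.06, adjusted p = 0.0236 over all probes tested, limma with Benjamini-Hochberg adjustment; 69.7% of those probes passed). The difference between the 2 *Gfap* probes within an array was 2.03 ± 0.10 in WT and 0.77 ± 0.12 in IG27 cells (SD, n = 3 each; p = 0.10, exact two-sided permutation test, the smallest that 3 arrays against 3 can give). Opposite calls between the probes of 1 gene occurred in 3.35% of the 5486 genes that had several tested probes. The mean of both probes gave -0.44 for *Gfap*, which still passed. The files give no position of a probe within the transcript, so that the direction of *Gfap* as a whole depends on the probe.

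*Nes* encodes nestin, the intermediate filament protein of neural progenitors. Its values were 5.15, 5.13 and 5.18 in WT and 4.64, 4.69 and 4.64 in IG27 cells. The groups did not overlap and were tight, with SDs of 0.03 each, smaller than those of 90.5% of tested genes in WT and of 91% in IG27 cells. *Nes* fell by 0.50 on the log2 scale (SE 0.04, adjusted p = 1.16e-04, limma with Benjamini-Hochberg adjustment).

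*Vim* encodes vimentin, the filament protein of radial glia and of many cultured cells. It was 7.10, 7.09 and 7.13 in WT and 7.07, 6.87 and 6.94 in IG27 cells. Although every IG27 array was lower than every WT array, the log2 fold change of -0.15 (95% confidence interval -0.31 to 0.01) did not pass the test (adjusted p = 0.0818, limma with Benjamini-Hochberg adjustment). Without IG27 replicate 1, the array nearest to WT, it was -0.21 with an adjusted p of 0.0192 (limma, Benjamini-Hochberg), and without IG27 replicate 2 it was -0.10. With the percentile taken over probes well above background on every complete array, *Vim* was at -0.019 (adjusted p = 0.793, limma with Benjamini-Hochberg adjustment).

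*Slc1a2* encodes GLT-1, the main glutamate transporter of mature astrocytes. It was -1.20, -1.16 and -1.35 in WT and -2.18, -2.41 and -2.21 in IG27 cells, with no overlap. Its log2 fold change was -1.03 (SE 0.09, adjusted p = 8.32e-05, limma with Benjamini-Hochberg adjustment). The glutamate transporters of astrocytes differed in opposite directions, *Slc1a3* higher and *Slc1a2* lower in IG27 cells.

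*Glul* encodes glutamine synthetase. Its brightest probe read 1.33, 1.34 and 1.44 in WT and 1.36, 1.37 and 1.42 in IG27 cells, and the groups overlapped. The log2 fold change was 0.01 (95% confidence interval -0.12 to 0.14, adjusted p = 0.855, limma with Benjamini-Hochberg adjustment), and the other 2 probes gave 0.09 and -0.02. The level of *Glul* depends on the scaling at this size: with the percentile taken over probes well above background on every complete array, which moved the median of all genes from -0.07 to 0.06, it was 0.14 and passed (adjusted p = 0.0369, limma with Benjamini-Hochberg adjustment).

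*Aqp4*, the water channel of astrocyte endfeet, was close to the limit of detection. One probe read -5.38, -5.20 and -5.14 in WT and -5.31, -5.38 and -4.66 in IG27 cells, and was well above background on 3 of 3 WT arrays and on 1 of the 2 IG27 arrays with complete output. The groups overlapped, and the difference of 0.12 had a 95% confidence interval from -0.36 to 0.61 (adjusted p = 0.603, limma with Benjamini-Hochberg adjustment). A second *Aqp4* probe was not tested, as 0 of 3 WT arrays and 1 of 2 IG27 arrays were well above background. It read -6.91, -7.69 and -8.17 in WT and -4.86, -5.75 and -6.12 in IG27 cells.

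*Aldh1l1* encodes the folate enzyme that marks astrocytes as a class. It was -1.28, -1.25 and -1.23 in WT and -2.14, -3.25 and -3.54 in IG27 cells. WT arrays were nearly equal (SD 0.02) and IG27 arrays were spread (SD 0.74), more than for all but 0.879% of tested genes. The groups did not overlap, and the log2 fold change was -1.72 (SE 0.35, adjusted p = 0.00486, limma with Benjamini-Hochberg adjustment). IG27 replicate 1 lay nearest to WT, and without it the change was -2.14.

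**Figure D2:**
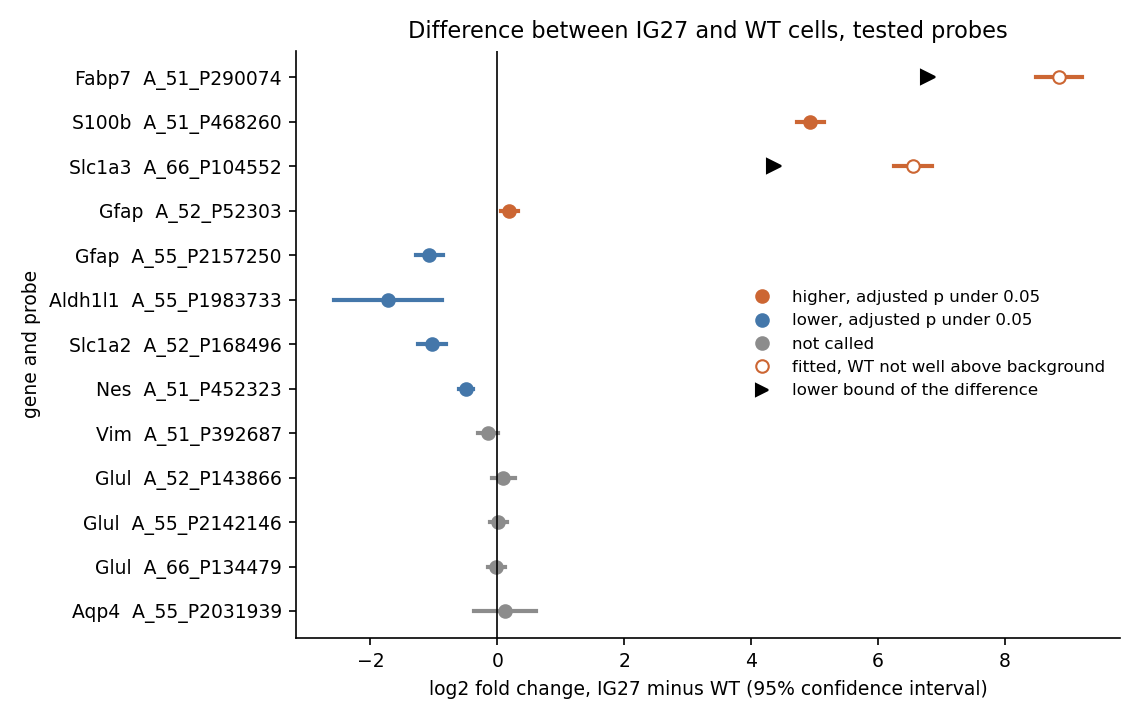
Log2 fold change of IG27 over WT cells (x axis) for the 13 tested probes of the 10 markers (y axis), with 95% confidence intervals from limma; open circles are fitted values of probes that no WT array measured well above background, and triangles are the lower bounds of those differences. *Fabp7*, *S100b* and *Slc1a3* lie far to the right, the *Gfap* probes lie on both sides of 0, and the intervals of *Vim*, *Glul* and *Aqp4* include 0.

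The groups of arrays did not overlap for 8 of the 10 markers, against 75.7% of all genes tested. The largest fall among the markers was that of *Aldh1l1*, at 3.30-fold.

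**Figure D3:**
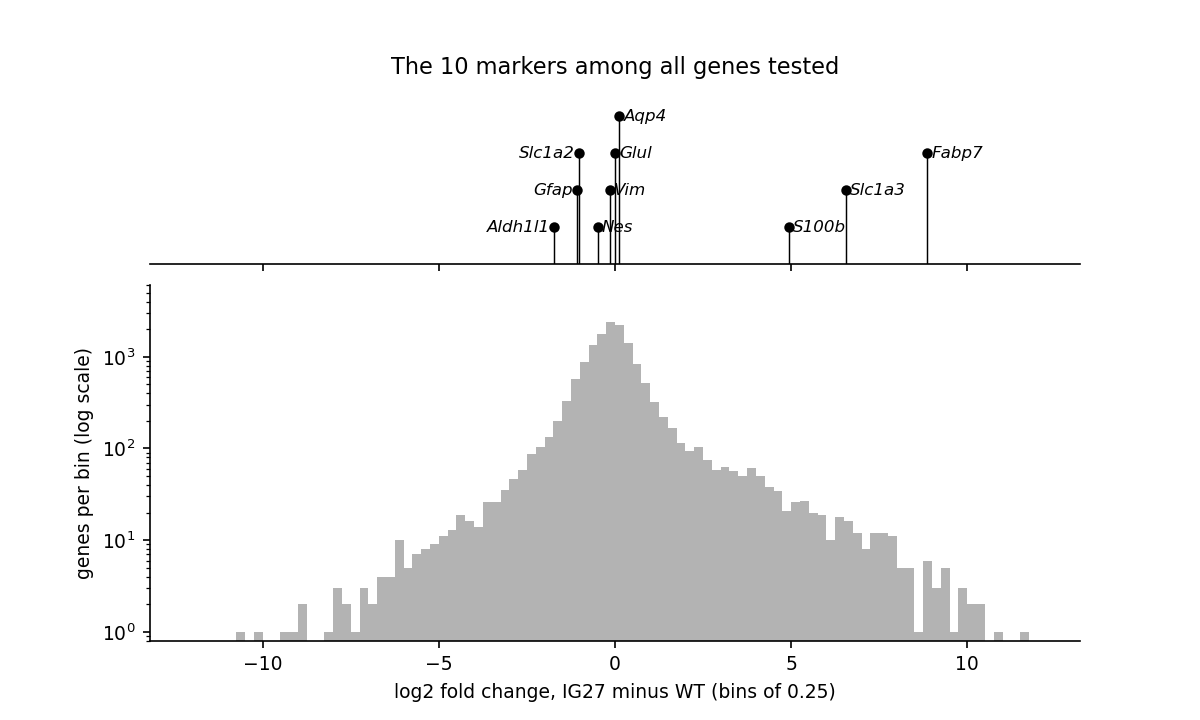
Log2 fold changes of the 10 markers (upper panel, a stem each, height without meaning) above the fitted log2 fold changes of the 14898 genes tested (lower panel, genes per bin of 0.25 on a log scale). *Fabp7*, *Slc1a3* and *S100b* lie in the right tail, and the other 7 markers lie between -1.72 and 0.12.

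Of the further genes of mature astrocytes, 26 were tested of a list of 30, and 12 were higher, 7 lower and 7 did not pass, with a median of 0.11. The share that passed was 73.1% here, 77.8% for radial glia and 78.9% for reactive astrocytes, against 70.5% of all genes. *Ppp1r3c*, which helps to store glycogen, was at least 17.5-fold higher, and *Slc4a4*, a bicarbonate transporter, at least 9.70-fold higher, and neither was well above background in any WT array. *Aldoc*, the brain aldolase, rose by 2.86 on the log2 scale. *Mlc1*, a membrane protein of astrocyte endfeet, fell by 4.56, from 5.47, 5.19 and 5.37 in WT to 0.81, 0.80 and 0.75 in IG27 cells. The growth factor receptor *Fgfr3* fell by 2.31 and the matrix proteoglycan *Bcan* fell by 2.05.

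Genes of radial glia and neural progenitors were divided evenly, with 7 higher, 7 lower and 4 that did not pass among 18 tested of 22, and a median of 0.11. *Tnc*, the matrix protein tenascin-C, was at least 160.5-fold higher, at -7.97, -7.74 and -8.24 in WT and 1.39, 1.70 and 1.58 in IG27 cells. The Notch target *Hes1* rose by 3.48, and *Hes5*, well above background on 1 of 3 WT arrays, had a fitted rise of 5.40. The growth factor *Ptn* fell by 2.04, its receptor *Ptprz1* fell by 1.78 and *Lrig1*, a brake on growth factor receptors, fell by 0.92. Neither *Tnc* nor *Fabp7* was well above background on a WT array, whereas *Nes* and *Vim* were so on all of them. *Msi1*, *Cspg5*, *Gli3* and *Fam107a* had log2 fold changes from -0.11 to 0.27 and did not pass.

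Genes that reactive astrocytes induce, a state in which *Gfap*, *Vim* and *Nes* also rise, gave 8 higher, 7 lower and 4 that did not pass of 19 tested of 24, with a median of 0.10. *Tm4sf1*, a membrane protein, rose by 10.17, and the secreted *Ptx3* rose by 3.24. *Aspg*, an asparaginase, was at least 10.1-fold higher. *Cd109* fell by 1.64 and *S1pr3*, a receptor of the lipid sphingosine phosphate, fell by 1.13. *Tgm1*, *Lcn2*, *Stat3* and *Thbs1* had log2 fold changes from -1.12 to 0.26 and did not pass. *Tgm1* was not well above background on any complete IG27 array.

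Of 17 genes of other intermediate filaments, the nuclear lamina and their linkers, 12 were tested. Among them 5 were higher, 6 were lower and 1 did not pass, with a median of -0.05. The share that passed was 91.7%, against 70.5% of all genes. The muscle filament *Des* rose by 1.06, *Sync* rose by 0.51, with 2 and 1 of 3 WT arrays well above background, and the lamin *Lmnb1* rose by 0.31. The keratin *Krt7* was at least 1.93-fold lower. *Lmna*, which encodes the A-type lamins, fell by 0.93, and *Plec*, which links filaments to the membrane, fell by 0.80. *Prph*, at 0.67, did not pass.

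Among the relatives of *Slc1a2* and *Slc1a3*, 4 of 5 were tested and 3 were higher: *Slc1a5*, a glutamine transporter, at least 5.64-fold, *Slc1a1*, the glutamate transporter of neurons, at least 1.79-fold, and *Slc1a7*, by 0.95 on the log2 scale. *Slc1a4* had a log2 fold change of -0.11 that did not pass. *Slc1a5* and *Slc1a1* passed the filter through the IG27 arrays alone, which favored their calls. The list median was 1.24, or 0.89 with the genes below background at their bound. The share that passed was 75%, against 70.5% of all genes. Among the relatives of *Fabp7*, 3 of 11 genes on the array were tested, and 66.7% of those passed. *Fabp5*, the epidermal form, rose by 0.93, *Crabp1*, a retinoic acid-binding protein, was at least 47.6-fold lower (0.24, 0.16 and 0.29 in WT; -6.83, -6.73 and -6.79 in IG27 cells), and *Fabp3*, the heart form, was at 0.01 and did not pass.

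The other aquaporins and the dystrophin complex, which holds Aqp4 in the endfoot membrane, had 6 higher, 4 lower and 1 that did not pass of 11 tested of 12, with a median of 0.45. *Sntb1*, a syntrophin, rose by 2.11, *Aqp11* rose by 1.83 and *Aqp5* rose by 1.31. *Aqp9* fell by 2.67 and dystrophin itself (*Dmd*) fell by 1.97. *Dtna*, at -0.01, did not pass. The share of this list that passed was 90.9%, against 70.5% of all genes.

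**Figure D4:**
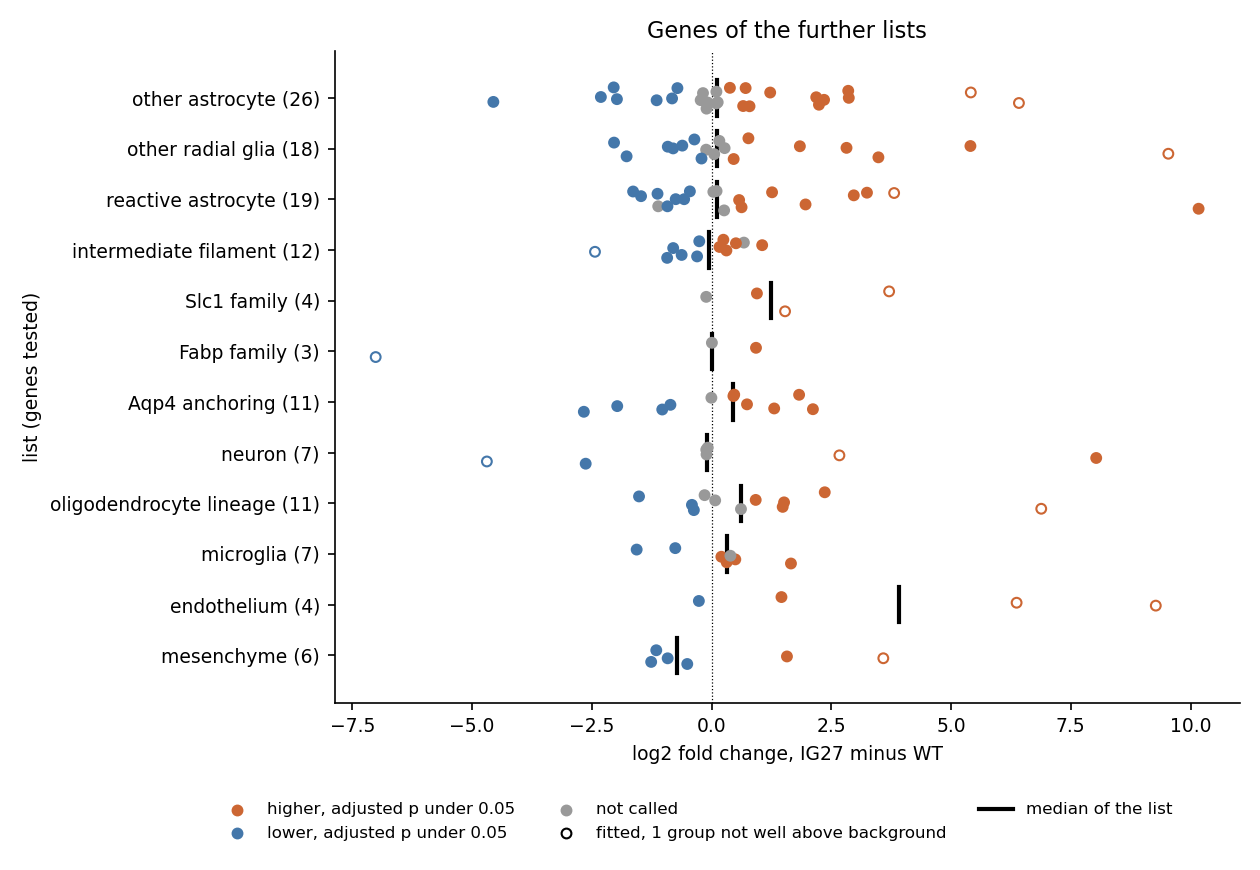
Log2 fold change of IG27 over WT cells (x axis) for each tested gene of the 12 further lists (y axis, number of genes tested). Orange genes were higher and blue genes lower at an adjusted p under 0.05, and gray genes did not pass. Open circles are fitted values of genes with a lower bound, where 1 group was not well above background, and black bars are list medians. Every list but those of the Slc1 relatives has genes called on both sides of 0.

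Markers of other cell types were measured beside these genes, and their part in the results was not tested. Of the oligodendrocyte lineage, 11 of 12 genes were tested, and 5 were higher and 3 lower. The share that passed was 72.7%, against 70.5% of all genes. The summed level (in multiples of the 75th percentile) ran from 109 to 118 in WT and from 89.7 to 92.9 in IG27 cells. Such a sum is on the linear scale and mostly follows the brightest genes of a list, so that it does not give the direction of the others. The precursor genes *Gpr17* (at least 80.1-fold), *Pdgfra* (2.36 on the log2 scale) and *Olig2* (1.51) were higher, and the myelin gene *Cnp* and the regulator *Sox10* fell by 1.52 and 0.37. Another myelin gene, *Mbp*, rose by 0.92. *Mog* (-0.15), *Mag* (0.07) and *Cspg4* (0.61) did not pass, and *Mobp* was not well above background on any complete array.
Endothelial genes had 3 higher and 1 lower of 4 tested of 8, a share of 100%, with a median of 3.91 (3.38 with bounds). *Kdr* and *Flt1* passed the filter through the IG27 arrays alone, which favored their calls. Their summed level ran from 0.273 to 0.297 in WT and from 3.57 to 3.60 in IG27 cells. *Kdr* and *Flt1*, receptors of vascular endothelial growth factor, were at least 134.8-fold and at least 39.6-fold higher and *Vwf* rose by 1.46, whereas *Pecam1* fell by 0.27. The defining genes *Cdh5*, *Cldn5*, *Tek* and *Tie1* were not well above background on any complete array.

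Of 7 neuronal genes tested of 10, 2 were higher and 2 lower. The share that passed was 57.1% here, 85.7% for microglia and 100% for pericytes and fibroblasts, against 70.5% of all genes. The neuronal sum, to which *Tubb3* was the brightest contributor in WT cells (mean 3.78), ran from 18.9 to 21.3 in WT and from 11.2 to 12.3 in IG27 cells. *Map2* had a fitted rise of 8.03 (well above background on 1 of 3 WT arrays) and *Gap43* was at least 1.60-fold higher, *Stmn2* was at least 5.32-fold lower and *Tubb3* fell by 2.63. *Elavl4*, *Snap25* and *Syp* had log2 fold changes from -0.11 to -0.08 and did not pass. *Rbfox3*, *Syt1* and *Dcx* were not well above background on any complete array.
Of 7 microglial genes tested of 10, 4 were higher and 2 lower, led by *Aif1* (1.66, well above background on 1 of 3 WT arrays), *P2ry12* (0.49) and *Cd68* (0.31) and by *Csf1r* (-1.57) and *Tmem119* (-0.76), while *C1qb* (0.39) did not pass. The microglial sum ran from 15.4 to 16.4 in WT and from 15.1 to 15.4 in IG27 cells, and *Cx3cr1*, *Ptprc* and *C1qa* were not well above background on any complete array. Genes of pericytes and fibroblasts had 2 higher and 4 lower of 6 tested of 10, with sums from 219 to 227 in WT and from 171 to 177 in IG27 cells. Decorin (*Dcn*), not well above background on any WT array, was at least 3.32-fold higher, *Col3a1* rose by 1.57, and *Tagln*, *Pdgfrb* and *Col1a1* fell by 1.26, 1.16 and 0.92. *Lum* and *Abcc9* were not well above background on any complete array.

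The genes whose 6 values, centered on their mean, lay closest to those of *Fabp7* were *Klk9*, *Immp2l* and *Ptgr1*, at Euclidean distances of 0.15, 0.16 and 0.25. *Immp2l* and *Ptgr1* were, like *Fabp7*, not well above background on any WT array, and the order of these distances rests on WT values below background. The closest to *Aldh1l1*, the marker with the largest fall, were *Rprm*, *Scg2* and *Tnfrsf18*, at distances of 0.32, 0.51 and 0.54. In IG27 cells *Rprm* and *Scg2* on all arrays, and *Tnfrsf18* on replicates 2 and 3, were dimmer than the dimmest probe well above background, so that their nearness to *Aldh1l1* rests in part on values below background. Likeness over 6 arrays that fall into 2 groups is mostly the difference between the groups.

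The tested genes on either side of the markers on the GRCm38.p6 assembly were also read. *Pkib* and *Gcc2*, beside *Fabp7*, had log2 fold changes of -0.53 and 0.75, *Prmt2* and *Dip2a*, beside *S100b*, of -0.69 and -0.84, and *Nipbl* and *Nadk2*, beside *Slc1a3*, of 0.18 and 0.01. None of these was higher by an amount like that of its neighbor. *Bcan*, beside *Nes*, fell by 2.05, and *Pamr1* and *Cd44*, on the sides of *Slc1a2*, fell by 3.57 and 0.75. The median log2 fold change of the markers' chromosomes ran from -0.34 (chromosome 2, *Slc1a2* and *Vim*) and -0.31 (chromosome 3, *Nes*) to 0.30 (chromosome 15, *Slc1a3*). The part of these chromosome shifts in the markers' values was not tested.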

How the data were processed

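RNA of 3 WT and 3 IG27 samples was hybridized to 6 single-color arrays of 1 slide. Per the labels, the authors read intensities with Agilent Feature Extraction 9.1. The deposited processed signal is an intensity on a linear scale, not scaled between arrays. The deposited value table equaled the scanner output for all 56305 single-spot probes of each complete array (relative tolerance 1e-04). Its columns of WT replicates 2 and 3 were exchanged, and the scanner labels were used. The table gave IG27 replicate 2, whose 255 readable single-spot probes equaled it.

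Outlier spots were left out, and log2 values were set relative to their own array's 75th percentile. Probes were named by accession (32994 of 56605 probes). For each gene the brightest probe was used, provided that in WT or IG27 cells all complete arrays flagged it as well above background. Differences were tested with limma 3.58.1 in R 4.3.3 (lmFit, eBayes, two-sided, Benjamini-Hochberg, threshold 0.05), after a test on simulated data.

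Genes named were all 10 markers, at most the 3 largest rises and 3 largest falls per list among called genes whose groups did not overlap, and the 3 genes closest to the marker with the largest rise and to that with the largest fall; others were named after their values were seen, and a few genes that the rule names are not reported here. Members and lists were chosen with earlier results of these data known. The number of arrays limits the precision. Alternatives were other normalizations, background correction, filters, outlier spots, probe averaging, variance trend, blocks, unadjusted p-values and each array left out.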

Additional observations from a re-analysis of the deposited data

How the results depend on the processing

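The number of markers called was 7 in the reported setting and between 5 and 8 in 18 alternatives. The 5 came from requiring every complete array to be well above background, a filter that *Fabp7*, *Slc1a3* and *Aqp4* cannot pass, and leaving out 1 array gave 7 to 8. That filter also took the calls from 3 to 1 among the Slc1 relatives, from 2 to 1 among those of *Fabp7*, from 4 to 1 among neuronal and from 4 to 2 among endothelial genes. The 7 called markers kept their direction and passed in every alternative that gave them a value. No alternative used the dimmer *Gfap* probe alone, which was higher by 0.19 in IG27 cells, so that the direction of *Gfap* still depends on the probe. Where *Fabp7* and *Slc1a3* entered through the IG27 arrays alone, the filter favored their calls. Genes called in all ran from 8946 (row of the slide as a block) to 10855 (unadjusted p), against 10501. *Aqp4* changed sign under quantile normalization (-0.15), and leaving out 1 array moved it from -0.10 to 0.25. *Glul* ran from -0.0075 to 0.0472 with 1 array left out; neither passed there. The cause of these sign changes was not tested. With dim probes kept, the all-gene median was 0.12 over 22911 genes, against -0.07 over 14898.

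Deviations of same-numbered WT and IG27 samples correlated at 0.0118, 0.0395 and 0.0763 for numbers 1 to 3. Those of differently numbered samples correlated at -0.094 to 0.059. With 3 samples per group, these values cannot show whether the numbers stand for a pairing. With the replicate block, 7 markers and 10309 genes were called. WT replicates 1 and 3 lay in 1 row of the slide and all other arrays in another, so that a row block compares IG27 cells with WT replicate 2. Depth limits *Aqp4*, *Slc1a3* and *Fabp7*, which are known in at least 1 group only as near or below background.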
